A study of Mus musculus with 12 samples.

Results

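Homozygous *Trpm3*-M/M lenses were compared with wild-type lenses at P7, an age of 7 days, by RNA sequencing of whole lenses. The libraries were chosen by genotype: the 3 labelled M/M and the 3 labelled WT, which are 6 of the 12 libraries in the series. The mice were on a C57BL6/J background. *Trpm3*-M/M mice carry 2 copies of a germline knock-in made by CRISPR/Cas9, which changes isoleucine to methionine (I65M) in TRPM3, so that every cell of the animal holds the allele and no promoter or Cre line restricts it. Wild-type mice carry neither copy. The study's methods give each library as lenses pooled from both sexes, 4 of each, and 1 poly(A) RNA library was read from each pool. The series also holds 3 libraries each of *Trpm3*-KO and heterozygous *Trpm3*-I/M lenses, which entered the fit for the estimate of the spread and are not described. The question of the comparison was which genes the mutant allele changes in the lens while a cataract forms. P-values measure the spread between these pooled samples, and in bulk RNA a change in the number of cells of a type and a change in RNA per cell cannot be told apart.

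The lens is a closed sac of epithelium-derived cells inside a capsule, with no blood vessels of its own once the fetal vessels around it have regressed. A layer of epithelial cells covers its front and feeds new fiber cells at the equator, where fibroblast growth factor signaling drives elongation, crystallin synthesis and the loss of organelles. Fiber cells depend on sodium, potassium and calcium pumps, most of them in the epithelium, to keep calcium low and water out, and the failure of that balance is a classical route to cataract. TRPM3 is a cation channel of the melastatin group that passes calcium and is made in the lens epithelium.

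*Trpm3* (ENSMUSG00000052387) spans chr19:22139046-22995410 on the plus strand of GRCm38. In that annotation, 7 of 18 coding transcripts place an isoleucine at codon 65 at chr19:22697437-22697439, in a coding exon shared by the channel forms that start upstream. Another 5 transcripts, which start further downstream, also have an isoleucine at their own codon 65, and the substitution was taken to lie in the upstream-starting forms, as the study's account of the exons places it ahead of the downstream start. The 63 bases of reference coding sequence around it are shown because the substitution that sets the genotypes apart was taken to lie at this codon. Whether the knock-in carries other base changes near it is not known here. The capitals mark the codon.
Trpm3 codon 65, wild-type reference: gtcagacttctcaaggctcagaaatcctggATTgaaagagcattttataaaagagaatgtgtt

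The counts are summed over the gene and do not show the base, so the level of *Trpm3* checks none of the labels. *Trpm3* stood at 270, 251 and 285 CPM (counts scaled to a common library total) in the wild-type libraries and at 473, 469 and 484 CPM in the *Trpm3*-M/M libraries. All *Trpm3*-M/M libraries lay above all wild-type libraries. Such a lack of overlap, in either direction, held for 65.2% of all genes tested. The difference was 1.77-fold (log2 fold change 0.82, standard error 0.06, adjusted p = 5.84e-08). Every p here is from the quasi-likelihood F-test of edgeR, adjusted over all tested genes after Benjamini and Hochberg. The *Trpm3* difference is past the p threshold and below the 2-fold threshold used here. With library totals alone as the scale, as set out below, its log2 fold change was 1.33, past 2-fold. *Mir204*, the microRNA gene inside *Trpm3*, held 0 counts in these libraries, and poly(A) libraries are not made to hold short RNAs.

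Among 8984 tested genes, 577 rose and 227 fell in *Trpm3*-M/M lenses, which is 8.95% of those tested (6.42% higher and 2.53% lower). A gene counts as having risen or fallen where its fold change was at least 2 and its adjusted p (false discovery rate, FDR) at most 0.05. On the FDR alone, 31.4% of the tested genes were higher and 31.4% lower. Among the called genes, 1 rise and 0 falls had overlapping libraries, so a lack of overlap adds little to a call. Rises were larger than falls. At 4-fold or more, 242 genes were higher and 41 lower, and at 8-fold or more 143 were higher and 13 lower. The genes that rose were low in wild-type lenses, with a median of 2.94 CPM there and 12.3 CPM in *Trpm3*-M/M, and their combined read share was 0.529% ± 0.0231 in wild-type and 2.45% ± 0.171 in *Trpm3*-M/M (SD, n = 3 each). The genes that fell were more abundant, with medians of 28.7 and 9.78 CPM, and they took 24.7% ± 0.973 of the reads in wild-type and 15.6% ± 1.23 in *Trpm3*-M/M (SD, n = 3 each). A gene had to reach 5 CPM in 3 of the 12 libraries to be tested, so a gene near 0 in wild-type entered only through the genotypes where it is high. That is why 131 of the 133 tested genes under 1 CPM in wild-type were called higher, and nothing is read from that share. Protein-coding genes gave 557 of the rises and 211 of the falls, and among 104 tested long noncoding RNAs 14 rose and 13 fell.

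**Figure D1:**
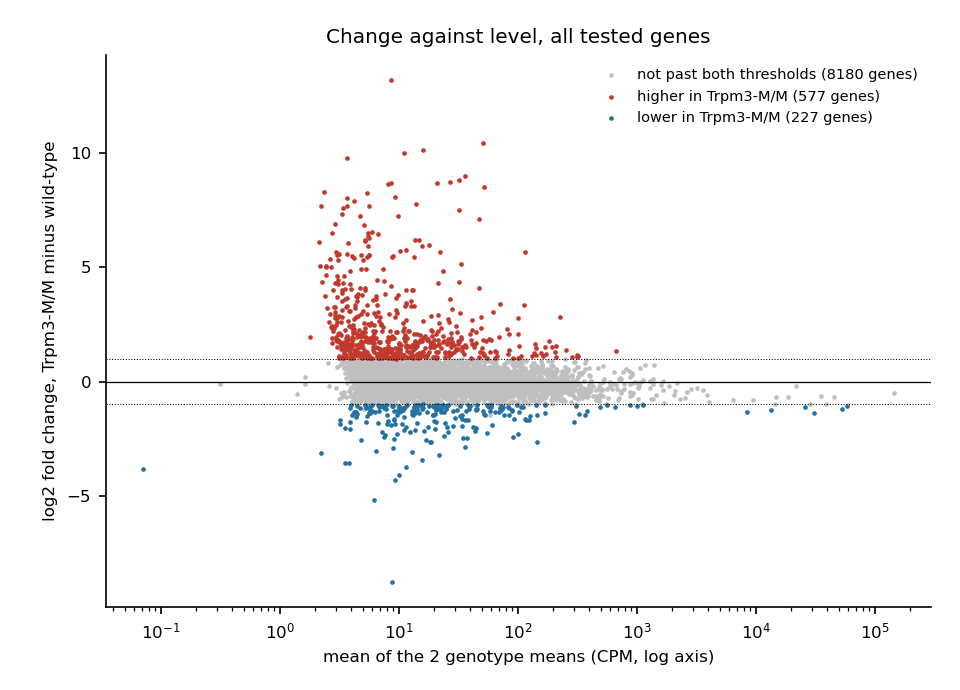
Log2 fold change of *Trpm3*-M/M minus wild-type (vertical axis) against the mean of both genotype means in CPM (horizontal log axis) for the 8984 tested genes, 1 point a gene, with dotted lines at a log2 fold change of 1 and −1. The 577 rises (red) reach further from 0 than the 227 falls (blue), and the points furthest to the right, the crystallins, lie below 0.

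Crystallin transcripts take a large part of lens RNA, and their share differed between the genotypes, so the choice of scaling bears on every fold change. With totals as the scale in place of TMM factors (trimmed mean of M-values), the middle gene of all tested moved from a log2 fold change of 0.00 to one of 0.50, and 1277 genes were called higher and 77 lower. A median or a single value between −0.50 and 0 therefore tends to change sign under that scale, and this is given beside each group median it touches. The libraries held 56162169 to 73875040 counted reads. *Xist*, the noncoding RNA of the silenced X chromosome, ranged from 45.8 to 210 CPM in wild-type and from 92.1 to 156 CPM in *Trpm3*-M/M libraries, with overlap (log2 fold change −0.25, adjusted p = 0.831).

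Gene groups were read from lists of genes by function and lists of cell type markers, described by counts and by their median log2 fold change, where that of all tested genes was 0.00. Counts and medians cover the tested members only. In lists with many members near 0 in wild-type, such as collagens (19 of 44 tested), immediate early genes (13 of 26) and endothelial markers (9 of 15), the filter admits those that are high in another genotype, so their medians are not set against those of other lists. For the same reason nothing is read from a share of called members in such lists that is above the share of all tested genes. Over all tested genes 8.95% were called, 6.42% higher and 2.53% lower, and the counts of each list stand against these shares. Where no share is given beside a list's counts, nothing is read from the number of calls for the list as a whole. Genes in at least 1 list made up 235 of the 804 called genes, and 569 were in none.

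**Figure D2:**
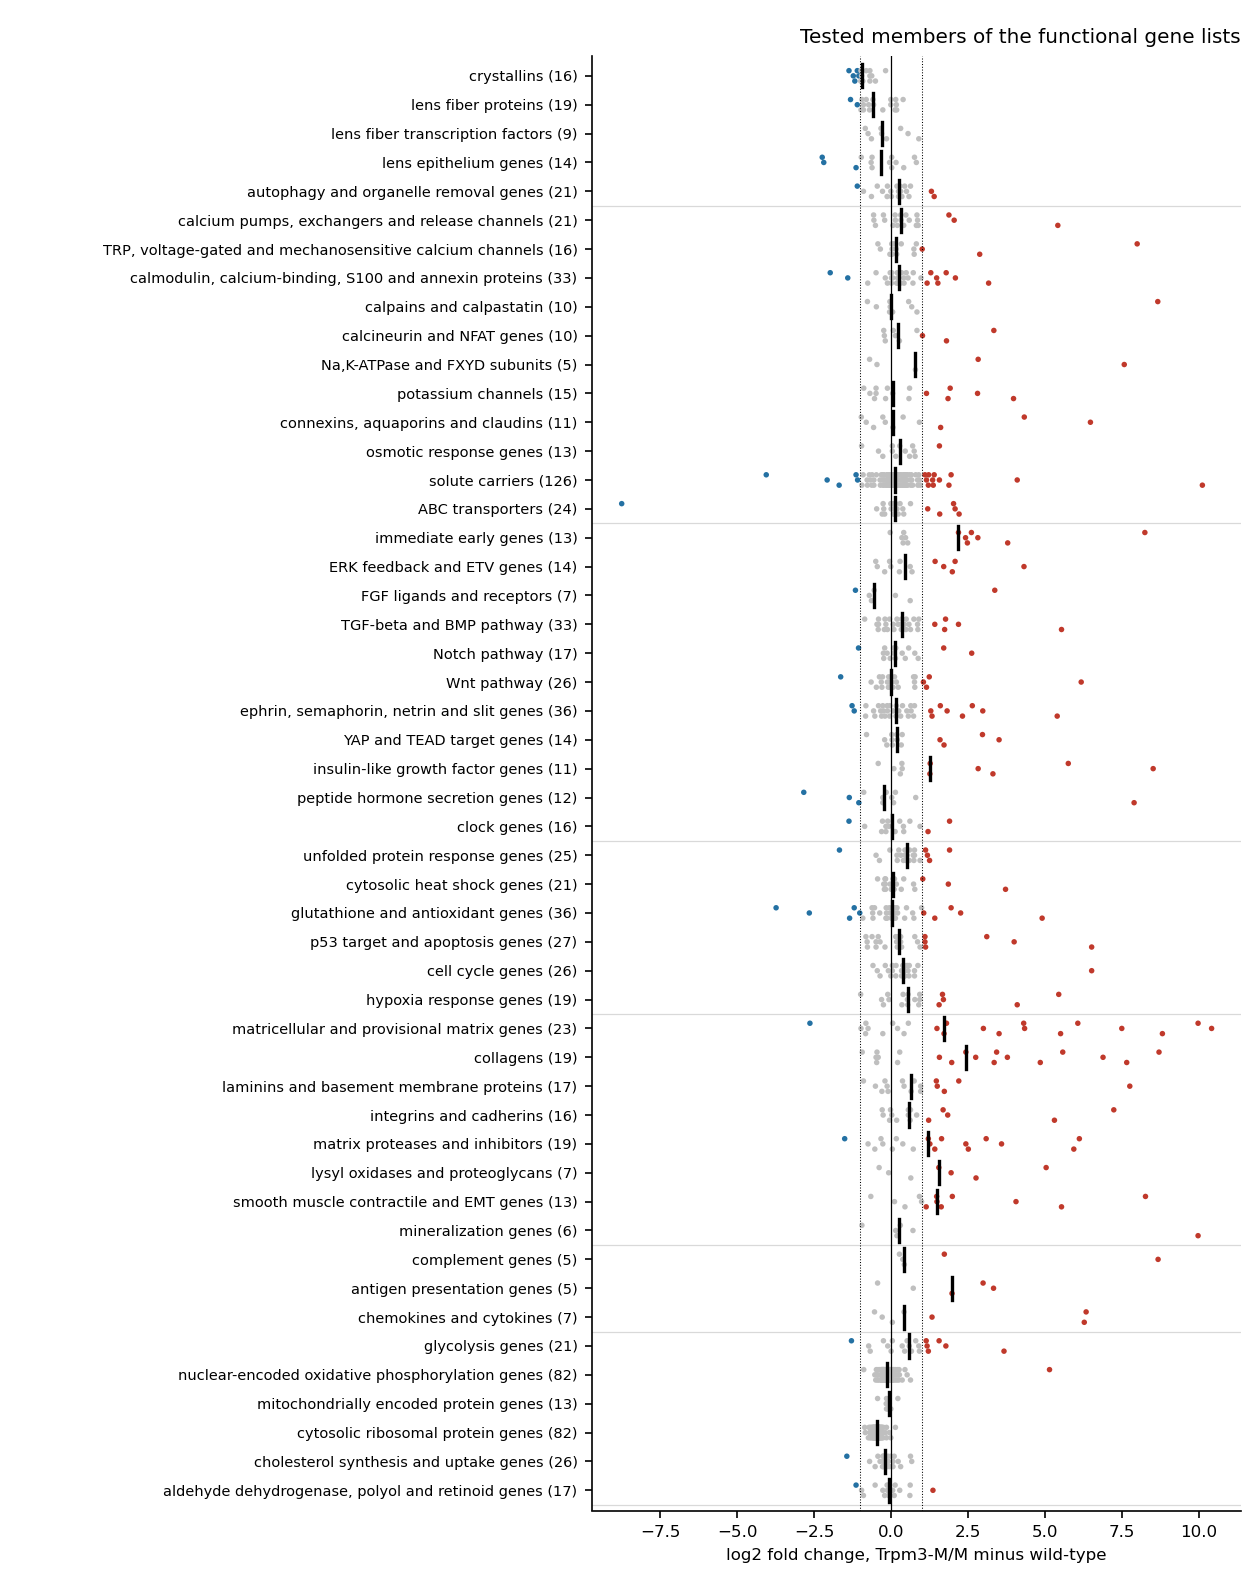
Log2 fold change of *Trpm3*-M/M minus wild-type (horizontal axis) for the tested members of each functional list with 5 or more of them (number in brackets), with the list's median as a black bar, genes called higher in red, genes called lower in blue and others in grey. Crystallins lie left of 0 throughout, ribosomal proteins sit close together just left of 0, and the matricellular list holds the point furthest to the right, at 10.42.

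Crystallins, the soluble proteins that make the lens refract, were lower. All 16 tested crystallin genes had a log2 fold change below 0 (median −0.94), 15 of them past the FDR threshold, and 5 fell at least 2-fold. With totals as the scale the median was −0.43 and no crystallin reached 2-fold, *Crygb* coming nearest at −0.86. All 5 that fell were gamma crystallins, which are made late in fiber cell differentiation. *Crygb* stood at 42569.5, 49656.8 and 42854.0 CPM in wild-type and at 19902.0, 16890.8 and 15432.1 CPM in *Trpm3*-M/M libraries, with no overlap (log2 fold change −1.37, standard error 0.10, adjusted p = 5.54e-08). *Crygf* fell by 1.23, *Cryga* by 1.18, *Crygc* by 1.10 and *Cryge* by 1.05 on the log2 scale. In a test against a fold change of 2 (glmTreat), *Crygf*, *Cryga*, *Crygc* and *Cryge* lost their calls. These genes are near-identical in sequence, so the division of reads among them is uncertain.

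The alpha crystallins, which also act as chaperones, were lower by less. *Cryaa* differed by −0.51 ± 0.08 on the log2 scale (± standard error, adjusted p = 6.17e-05) and *Cryab*, a small heat shock protein, by −0.18 ± 0.08 (adjusted p = 0.0787). As a share of all counted reads, which needs no scaling factor, gamma crystallins took 26.4%, 28.0% and 25.6% in wild-type and 18.8%, 17.5% and 16.3% in *Trpm3*-M/M libraries. Beta crystallins took 18.5% ± 0.432 and 15.6% ± 0.127 (SD, n = 3 each). *Cryaa* took 14.9% ± 0.0505 and 14.9% ± 0.281, with overlapping libraries, while *Cryab* took 2.04% ± 0.12 in wild-type and 2.57% ± 0.191 in *Trpm3*-M/M. The crystallin classes thus changed unequally within the same libraries, gamma most and alpha least, and the sign for *Cryab* depends on the scale.

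**Figure D3:**
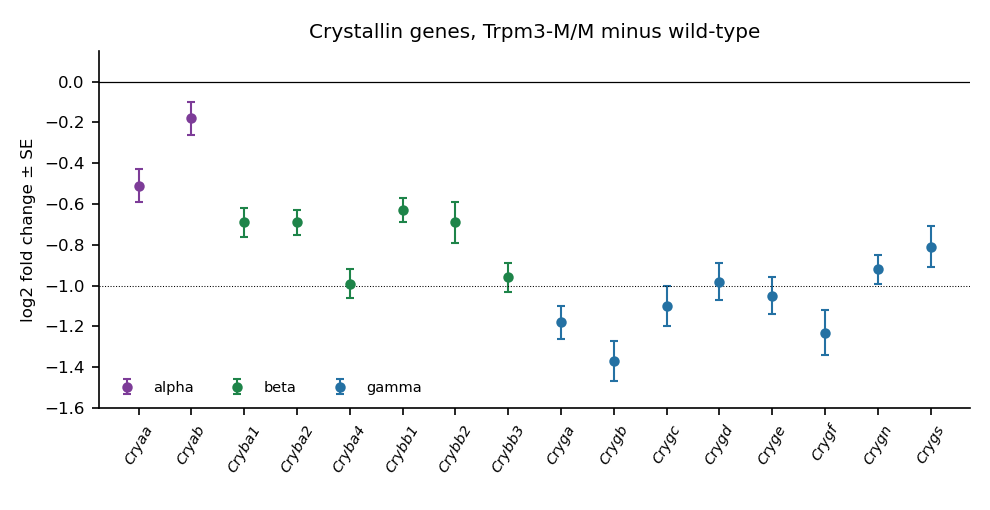
Log2 fold change with standard error (vertical axis) of the 16 tested crystallin genes, *Trpm3*-M/M minus wild-type, by class. Each of the gamma genes *Cryga* to *Crygf* lies at or near the dotted line of a 2-fold fall, the beta genes lie between it and 0, and *Cryab* lies nearest to 0 at −0.18.

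The promoters of the 6 genes *Cryga* to *Crygf*, all on chromosome 1, are shown because the 5 crystallins that fell are among them. The sixth, *Crygd*, was short of 2-fold at a log2 fold change of −0.98, next to *Cryba4*, a beta crystallin, at −0.99. The 120 bases before each start are from RefSeq (GRCm38.p6), written along the gene's strand, and the capitals mark TTTGTG and TATATA, runs chosen after reading these windows.
Cryga, chr1:65103364-65103483, minus strand: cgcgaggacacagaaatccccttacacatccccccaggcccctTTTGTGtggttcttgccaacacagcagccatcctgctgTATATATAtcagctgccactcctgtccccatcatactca
Crygb, chr1:65082291-65082410, minus strand: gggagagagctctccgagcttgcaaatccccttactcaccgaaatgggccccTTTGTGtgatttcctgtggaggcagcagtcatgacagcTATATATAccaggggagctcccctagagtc
Crygc, chr1:65073533-65073652, minus strand: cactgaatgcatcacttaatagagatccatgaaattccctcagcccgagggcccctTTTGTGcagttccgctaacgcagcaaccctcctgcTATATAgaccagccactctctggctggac
Crygd, chr1:65063441-65063560, minus strand: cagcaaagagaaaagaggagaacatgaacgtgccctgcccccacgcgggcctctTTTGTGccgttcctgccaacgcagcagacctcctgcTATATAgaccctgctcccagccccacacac
Cryge, chr1:65051164-65051283, minus strand: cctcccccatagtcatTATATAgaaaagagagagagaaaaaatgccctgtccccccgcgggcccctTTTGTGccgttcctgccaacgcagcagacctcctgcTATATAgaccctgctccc
Crygf, chr1:65926402-65926521, plus strand: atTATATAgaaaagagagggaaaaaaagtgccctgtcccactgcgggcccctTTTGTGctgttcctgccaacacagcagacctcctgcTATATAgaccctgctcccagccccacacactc

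In 250-base windows before the start, on either strand, both runs together occurred in 6 of these 6 promoters and in 1.03% of 32851 promoters in the RefSeq table. Because the runs were chosen from these same promoters, 6 of 6 was fixed in advance, and nothing is read from the contrast. *Crygd*, which was not called, carries both runs too. TGCTGA, the letters of a half-site for Maf proteins, occurred in 10 of 15 crystallin promoters with an entry and in 16.1% of all promoters. Among *Cryga* to *Crygf*, which hold all the crystallins that fell, it occurred in 2 of 6. It occurred in 16.5% of windows of genes that fell and in 11.9% of windows of tested genes. In genes that rose, the AP-1 letters TGANTCA occurred in 6.35% of 567 windows, against 4.06% of windows of tested genes and 6.75% of all promoters. In genes that fell they occurred in 5.63% of 231 windows, so they were not particular to the rises. A match is a match of letters and says nothing of binding.

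Of 19 tested fiber cell proteins, 2 fell and 0 rose, a share near that of all tested genes. On the FDR alone 11 were lower, 1 was higher and 7 did not pass, and the median log2 fold change was −0.59 (−0.08 with totals as the scale). *Bfsp1*, the beaded filament protein filensin, went from 11682.0, 12756.4 and 11555.9 CPM to 5837.0, 4347.8 and 4262.6 CPM (log2 fold change −1.32, standard error 0.11, adjusted p = 2.24e-07). *Lctl*, a klotho-family protein of lens membranes, fell by 1.10 on the log2 scale. *Mip*, the fiber water channel aquaporin-0, was lower by a log2 fold change of −0.81 (adjusted p = 2.19e-08), short of 2-fold. *Lenep*, a small lens-specific gene that is among the most abundant genes called, fell from 1266.9, 1507.4 and 1352.3 CPM to 777, 642 and 546 CPM. In none of these genes did the libraries of the genotypes overlap. With totals as the scale *Bfsp1* (−0.81), *Lctl* (−0.59) and *Lenep* (−0.56) stayed lower and missed 2-fold.

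Genes that remove organelles from fibers moved both ways. Of 21 autophagy and organelle removal genes, 2 rose and 1 fell (median 0.24). That is 14.3% of the list, against 8.95% of all tested genes. *Plaat3*, a phospholipase that degrades lens organelles, fell from a range of 859 to 920 CPM to one of 387 to 460 CPM. *Sqstm1*, the autophagy receptor p62, rose from 128, 135 and 156 CPM to 356, 402 and 348 CPM (log2 fold change 1.40, standard error 0.08, adjusted p = 5.07e-09). *Map1lc3a*, a coat protein of autophagosomes, rose by 1.31. *Uchl1*, a ubiquitin hydrolase and the most abundant gene that rose, went from 338, 440 and 365 CPM to 918, 999 and 935 CPM.

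Transcription factors of the fiber program gave 0 calls in either direction. Of 9 tested, 6 were lower and 3 higher past the FDR threshold alone (median −0.31, and 0.20 with totals as the scale). *Maf*, an activator of crystallin genes, was at 1397.5, 1251.5 and 1218.6 CPM in wild-type and 858, 718 and 726 CPM in *Trpm3*-M/M (log2 fold change −0.75, adjusted p = 7.41e-07). *Prox1*, which drives fiber elongation, had a log2 fold change of −0.33. Both were lower in every *Trpm3*-M/M library, by less than 2-fold, and the sign for *Prox1* turns with totals as the scale.

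Of 14 epithelial genes tested, 3 fell and 0 rose (median −0.34, and 0.17 with totals as the scale). *Foxe3*, which keeps lens epithelial cells alive and dividing, went from 105, 90.8 and 76.7 CPM to 18.3, 21.2 and 17.9 CPM (log2 fold change −2.24, standard error 0.12, adjusted p = 4.57e-09). *Sox2*, an early lens factor that works with *Pax6*, went from 18.6, 18.9 and 23.3 CPM to 4.55, 4.65 and 4.12 CPM (log2 fold change −2.19, standard error 0.10, adjusted p = 4.96e-10). *Meis2*, a homeobox gene, fell by 1.14. Every *Trpm3*-M/M library lay below every wild-type library for these 3 genes. The members moved unequally: *Dkk3*, a secreted Wnt pathway protein and the most abundant member, had a log2 fold change of 0.02 (adjusted p = 0.766), and the summed level of the list was 3585.1 to 3627.9 CPM in wild-type and 3327.4 to 3390.6 CPM in *Trpm3*-M/M.

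Genes that carry calcium out of cells were among the rises. Of 21 tested genes for calcium pumps, exchangers and release channels, 3 rose and 0 fell (median 0.32). That is 14.3% of the list, against 8.95% of all tested genes. *Atp2b4* and *Atp2b1* were under 5 CPM in wild-type and were tested only through a genotype where they are high. Nothing is therefore read from that difference in share. *Atp2b4*, a plasma membrane calcium pump, went from 0.668, 0.525 and 0.634 CPM to 24.2, 27.8 and 26.8 CPM (log2 fold change 5.42, standard error 0.13, adjusted p = 4.99e-12). *Atp2b1*, the ubiquitous pump of the same family, went from 4.33, 4.14 and 4.68 CPM to 18.1, 18.4 and 18 CPM (log2 fold change 2.05, standard error 0.07). *Slc8a1*, the sodium-calcium exchanger, rose from a range of 12.3 to 15.7 CPM to one of 47.3 to 56.8 CPM (log2 fold change 1.88). The genotypes did not overlap for any of these 3. The pump of the endoplasmic reticulum, *Atp2a2*, was higher by 0.48 on the log2 scale, short of 2-fold.

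Among 16 tested TRP, voltage-gated and mechanosensitive calcium channels, 3 rose and 0 fell (median 0.17). *Trpc4*, a receptor-operated cation channel, had 4 counts over the wild-type libraries and 1920 over the *Trpm3*-M/M libraries, a ratio of 274 (95% exact interval 107 to 1006.8, counting error only). *Piezo2*, a mechanosensitive channel, rose by 2.88 and *Cacna1h*, a T-type calcium channel, by 1.01 on the log2 scale. The call of *Cacna1h* ended with upper-quartile factors (0.99), with weaker filters (0.98 and 0.99), and without wild-type replicate 3 (0.92) or *Trpm3*-M/M replicate 2 (0.98) or 3 (1.00). *Trpm1* (log2 fold change 0.75) and *Trpv4* (0.74), other TRP channels, were higher in all *Trpm3*-M/M libraries and passed the FDR threshold at 6.26e-06 and 0.000157, short of 2-fold. With totals as the scale *Trpm1* (1.26) and *Trpv4* (1.25) were past 2-fold.

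Of 33 tested calcium-binding proteins 7 rose and 2 fell (median 0.25). *Cabp5*, a calmodulin-like protein, went from 6.94, 4.24 and 5.59 CPM to 56.8, 40.9 and 53.5 CPM (log2 fold change 3.17, standard error 0.19, adjusted p = 1.06e-08). *Anxa2* and *S100a10*, partners in a membrane-binding complex, rose by 2.09 and 1.79 on the log2 scale. *S100a6*, another small calcium sensor, went from 87.0, 108 and 105 CPM to 223, 326 and 313 CPM. *Camk1d*, a calmodulin-dependent kinase, fell from 27.4, 27.0 and 29.9 CPM to 6.81, 7.01 and 7.50 CPM (log2 fold change −1.98), and *Vsnl1*, a neuronal calcium sensor, fell by 1.41. None of these named genes had overlapping libraries.

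Of 10 calpain genes, which encode calcium-activated proteases, 1 rose and 0 fell (median 0.01), a share near that of all tested genes. The gene that rose, *Capn6*, encodes a member that lacks a working protease site, and its libraries held 0.0, 0.147 and 0.159 CPM in wild-type and 47.2, 42.1 and 36.1 CPM in *Trpm3*-M/M. *Capn3*, whose lens forms are fiber proteases, had a log2 fold change of −0.48 (0.02 with totals as the scale) and *Capns1*, the common small subunit, one of 0.57. Of 10 calcineurin and NFAT genes 3 rose (median 0.21): *Nfatc1*, a calcineurin-driven transcription factor, by 3.34, *Rcan1*, a calcineurin inhibitor, by 1.80 and *Rcan3*, a relative of it, by 1.02 on the log2 scale. *Rcan1* went from 22.9, 25.1 and 20.2 CPM to 76.3, 80.1 and 81.4 CPM, with no overlap.

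Sodium pump genes were few among those tested. Of 5 tested Na,K-ATPase and FXYD genes, 2 rose and 0 fell (median 0.79). *Atp1b1*, a beta subunit, went from 13, 11 and 12.7 CPM to 94.3, 89.5 and 77.7 CPM (log2 fold change 2.83, standard error 0.10, adjusted p = 9.34e-11). *Atp1b3*, a ubiquitous beta subunit, was lower with a log2 fold change of −0.70, short of 2-fold.

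Of 15 potassium channel genes 5 rose and 0 fell (median 0.05). *Kcnk3*, an acid-sensitive leak channel, rose from 1.36, 1.74 and 1.63 CPM to 27.4, 26.3 and 20.7 CPM (log2 fold change 3.98), and *Kcna5* and *Kcnc1*, voltage-gated channels, rose by 2.81 and 1.85. The most abundant member, *Kcnj12*, an inward rectifier, had a log2 fold change of 0.05 with overlapping libraries. Of 11 connexins, aquaporins and claudins 3 rose (median 0.06), among them *Aqp1*, the water channel of the lens epithelium, by 1.61, and *Cldn5*, an endothelial tight junction gene, by 6.48. *Gja1*, the connexin of lens epithelial cells, went from 42.4, 39.6 and 38.6 CPM to 18, 24.8 and 18.9 CPM, a log2 fold change of −0.97. Among 13 osmotic response genes *Slc6a6*, the taurine transporter, rose by 1.57 and was the only call. That is 7.69% of the list, against 8.95% of all tested genes.

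**Figure D4:**
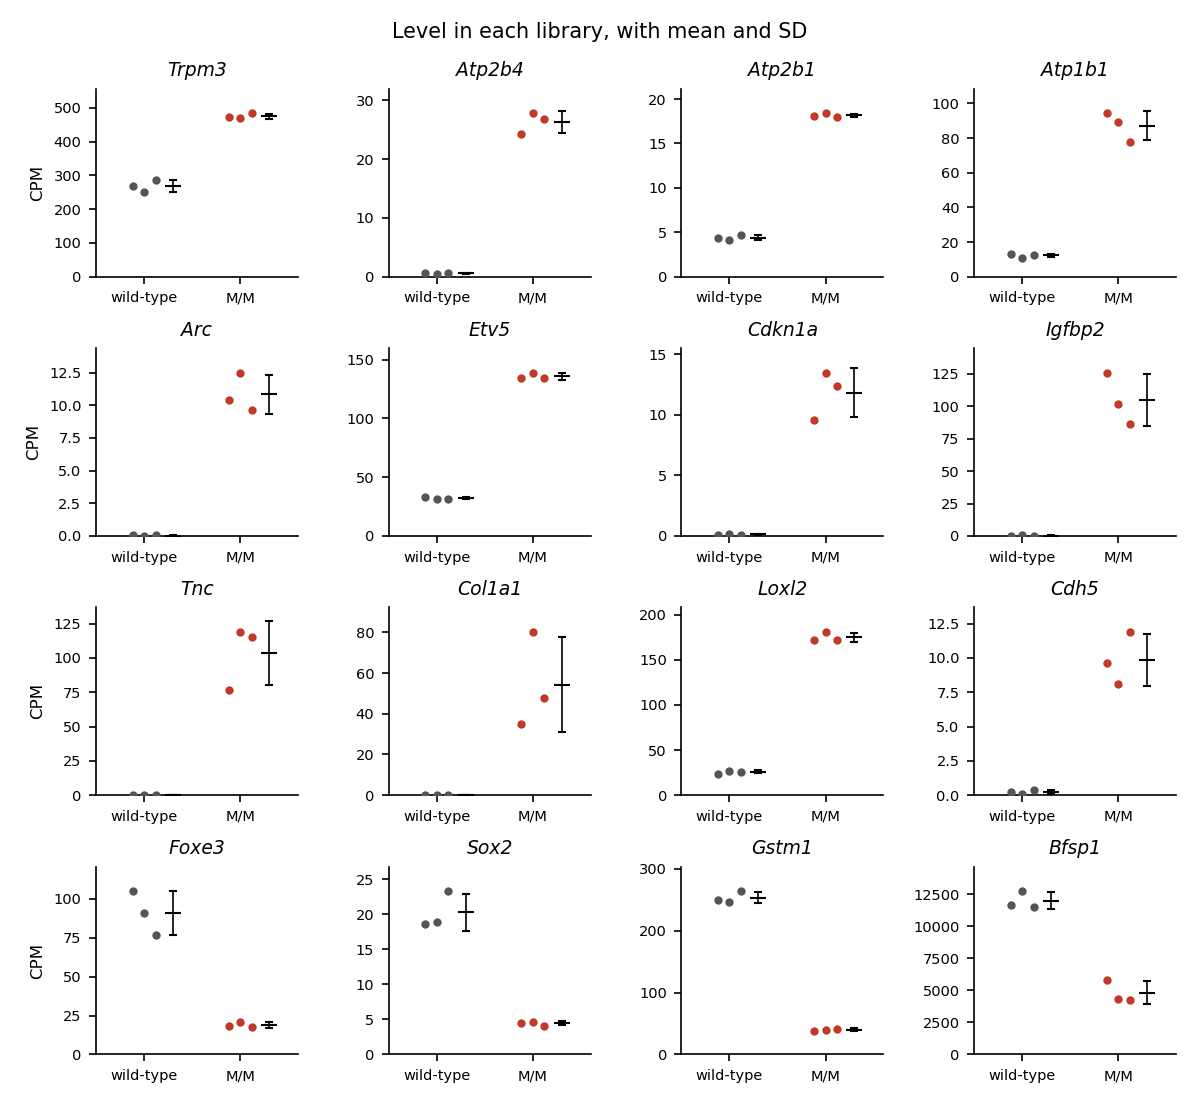
Level in CPM (vertical axes, each from 0) of 16 genes in the 3 wild-type (grey) and 3 *Trpm3*-M/M (red) libraries, 1 point a library, with mean and SD beside them. In each panel the genotypes do not overlap, with *Trpm3* at 251 to 285 against 469 to 484 CPM and *Foxe3* at 76.7 to 105 against 17.9 to 21.2 CPM.

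Solute carriers gave 12 rises and 5 falls among 126 tested (median 0.12), 13.5% of the list against 8.95% of all tested genes. *Slc14a1*, *Slco5a1* and *Slc6a8* were under 5 CPM in wild-type and were tested only through a genotype where they are high. The difference in share is therefore not read as a result. *Slc14a1*, a urea transporter, had 4 counts over the wild-type libraries and 32.4, 34.1 and 29.5 CPM in *Trpm3*-M/M, a ratio of 1191.9 (95% exact interval 465 to 4375.6). *Slco5a1*, an organic anion transporter relative, rose by 4.10 and *Slc6a8*, the creatine transporter, by 1.95. Amino acid and peptide carriers were among the falls. *Slc6a15*, a neutral amino acid transporter, went from 18.3, 18.8 and 20.4 CPM to 0.988, 1.37 and 1.06 CPM (log2 fold change −4.06, standard error 0.12, adjusted p = 1.32e-11). *Slc6a11*, a GABA transporter, fell by 2.08, *Slc38a3*, a glutamine transporter, by 1.69 and *Slc15a2*, a peptide transporter, by 1.14.

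ABC transporters gave 5 rises and 1 fall among 24 tested (median 0.13). *Abcb1a* and *Abcb1b*, the paired drug efflux pumps of the mouse, rose by 2.08 and 2.21, with reads that the counting may divide between them, and *Abca7* and *Abca4*, lipid transporters, rose by 2.03 and 1.58. *Abca13*, a large transporter of the same lipid-carrying group, was the fall, from 17.6, 11.8 and 23 CPM to 0.0375, 0.0759 and 0.0 CPM, too few counts in *Trpm3*-M/M for a firm fold. Of 4 carbonic anhydrases, which balance bicarbonate and protons, 2 rose and 2 fell. *Car2*, the cytosolic form, went from 4.93, 4.52 and 4.08 CPM to 178, 248 and 252 CPM (log2 fold change 5.64, standard error 0.15, adjusted p = 7.63e-12). *Car9*, a cell surface form induced by low oxygen, rose by 4.10, *Car8*, a form without catalytic activity, fell by 3.55 and *Car14*, a membrane form, fell by 1.16.

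Immediate early genes answer a stimulus first. Of 13 tested, 7 rose and 0 fell, and the median was 2.19. On the FDR alone 12 were higher, where 31.4% of all tested genes were. Members under 5 CPM in wild-type, such as *Arc*, *Fosl2*, *Klf4* and *Klf2*, were tested only through a genotype where they are high. Nothing is therefore read from that difference in share. *Arc*, an activity-regulated gene best known from neurons, held 5 counts over the wild-type libraries and 10.4, 12.5 and 9.60 CPM in *Trpm3*-M/M, a ratio of 323 (95% exact interval 138 to 996). *Fosl2*, an AP-1 subunit, went from 0.668, 0.567 and 0.753 CPM to 8.24, 11 and 8.34 CPM (log2 fold change 3.79, standard error 0.17, adjusted p = 6e-10). *Klf4* and *Klf2*, zinc finger factors, rose by 2.82 and 2.61. *Jund* and *Klf6*, the most abundant members, were higher by 0.54 and 0.41 on the log2 scale. The other 13 members on the list did not reach the filter and were not tested.

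Feedback genes of the ERK pathway gave 5 rises and 0 falls among 14 tested (median 0.46). *Etv5* and *Etv4*, ETS factors downstream of fibroblast growth factor, rose by 2.08 and 4.32. *Etv5* went from 33.0, 31.6 and 31.6 CPM to 134, 139 and 134 CPM, with no overlap (standard error 0.06, adjusted p = 9.45e-12). *Dusp6* and *Dusp4*, phosphatases that switch ERK off, rose by 1.99 and 1.71. *Ccnd1*, a cyclin often raised by ERK, had a log2 fold change of −0.45, whose sign turns with totals as the scale. The ligands and receptors moved differently. Of 7 FGF genes 1 rose and 1 fell (median −0.55, and −0.04 with totals as the scale): *Fgf12*, an intracellular relative that binds sodium channels, rose by 3.37 and *Fgf1*, a secreted ligand, fell by 1.16, while *Fgfr3*, a receptor of lens cells, was lower with a log2 fold change of −0.55.

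Insulin-like growth factor genes gave 6 rises and 0 falls among 11 tested (median 1.26). *Igfbp2*, a binding protein of the growth factors, went from 0.138, 0.420 and 0.297 CPM to 126, 102 and 86.5 CPM (log2 fold change 8.52, standard error 0.25, adjusted p = 1.32e-11). *Igfbp3* and *Igfbp4* rose by 5.76 and 3.31. *Igf2r*, the receptor that clears IGF2 and carries lysosomal enzymes, went from 63.2, 47.4 and 56.6 CPM to 382, 358 and 448 CPM. *Igfbp7*, the most abundant member, was lower at a log2 fold change of −0.42, and its sign turns with totals as the scale.

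Among 33 TGF-beta and BMP pathway genes 5 rose and 0 fell (median 0.34). *Tgfb3*, a ligand, rose from 2.36, 2.65 and 1.63 CPM to 10.2, 11 and 8.95 CPM, and *Ltbp1*, which stores the latent ligand in matrix, rose by 1.74. *Eng*, a coreceptor of endothelium, rose by 5.54. Among 17 Notch pathway genes, *Heyl*, a target, and *Jag2*, a ligand, rose by 2.62 and 1.71 and *Notch3*, a receptor of mural cells, fell by 1.06 (median 0.14). *Jag1*, the ligand that lens fibers use, was higher by 0.46 on the log2 scale. Of 26 Wnt genes 4 rose and 1 fell (median 0.01): *Apcdd1*, an inhibitor of the pathway, went from 0.374, 0.315 and 0.416 CPM to 26.3, 29.7 and 24.7 CPM, *Nkd1*, a target of it, rose by 1.24, and *Fzd1*, a receptor, fell by 1.64.

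Guidance molecules gave 8 rises and 2 falls among 36 tested (median 0.17). *Nrp2* and *Plxnd1*, semaphorin receptors, rose by 5.40 and 2.32, *Unc5b* and *Dcc*, netrin receptors, by 2.98 and 2.64. *Unc5b* went from 7.57, 8.82 and 5.95 CPM to 57.2, 64.4 and 54.5 CPM. *Sema3a* and *Sema5b*, ligands, fell by 1.27 and 1.20. Of 14 YAP and TEAD targets 4 rose (median 0.19), *Ccn1*, *Axl*, *Ccn2* and *Fjx1*, by 3.51, 2.97, 1.72 and 1.59. Of these *Ccn2*, a secreted matrix signal, was at 16.2, 14.0 and 14.6 CPM in wild-type and 42.0, 57.1 and 48.5 CPM in *Trpm3*-M/M. Peptide hormone secretion genes gave 3 falls and 1 rise among 12 (median −0.22, and 0.29 with totals as the scale). *Gcg*, the glucagon precursor, varied within wild-type, at 56.3, 95.9 and 39.0 CPM, and stood at 7.74, 9.54 and 9.42 CPM in *Trpm3*-M/M (log2 fold change −2.84, standard error 0.27). *Cck*, the cholecystokinin precursor, was the rise, with 5 counts in wild-type and 7.18, 8.70 and 9.45 CPM in *Trpm3*-M/M. Of 16 clock genes, *Bhlhe40* and *Nfil3*, repressors, rose by 1.90 and 1.20 and *Hlf*, an output factor, fell by 1.37 (median 0.03).

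Chaperones of the endoplasmic reticulum were higher. Of 25 unfolded protein response genes 4 rose and 1 fell, and the median was 0.51. On the FDR alone 20 were higher, where 31.4% of all tested genes were. *Hspa5*, the main chaperone BiP, went from 100, 107 and 102 CPM to 211, 221 and 238 CPM (log2 fold change 1.12, standard error 0.06, adjusted p = 4.48e-09). *Ddit3*, the stress factor CHOP, rose by 1.90, *Asns*, asparagine synthetase, by 1.25 and *Dnajb9*, a cochaperone, by 1.18. *Ppp1r15a*, the phosphatase subunit that ends translational arrest, was uneven in wild-type, at 164, 281 and 121 CPM, and fell to 58.1, 58.9 and 60 CPM. Of 21 cytosolic heat shock genes 3 rose (median 0.06): *Hspa1b*, an inducible form whose reads may be divided with a near-identical neighbor, by 3.72, *Hspb8* by 1.86 and *Hspb6* by 1.03. The most abundant member, *Hsp90ab1*, had a log2 fold change of −0.18, positive with totals as the scale.

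Glutathione and antioxidant genes gave 5 rises and 5 falls among 36 tested (median 0.02). With totals as the scale *Gstm6* (−0.84), *Gstm7* (−0.69) and *Hmox1* (−0.51) missed 2-fold, and *Hmox1* also did without wild-type replicate 2 (−0.99) or *Trpm3*-M/M replicate 3 (−0.82). Of the 5 falls 4 were glutathione S-transferases of the mu class, which detoxify lipid products and lie side by side with similar sequences. *Gstm1* went from 249, 247 and 264 CPM to 38.1, 40.3 and 42.0 CPM (log2 fold change −2.66, standard error 0.08, adjusted p = 1.36e-11), and *Gstm2*, *Gstm6* and *Gstm7* fell by 3.74, 1.35 and 1.20. *Hmox1*, the heme-degrading enzyme, fell from 1116.3, 1237.6 and 1211.5 CPM to 723, 622 and 416 CPM. *Mt1*, a metallothionein, *Gpx3*, a secreted glutathione peroxidase, *Txnip*, a thioredoxin inhibitor, and *Gsto1*, an omega class transferase, rose by 4.91, 2.26, 1.95 and 1.42.

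Of 27 p53 target and apoptosis genes 6 rose and 0 fell (median 0.25). That is 22.2% of the list, against 8.95% of all tested genes. *Cdkn1a*, *Plk2* and *Phlda3* were under 5 CPM in wild-type and were tested only through a genotype where they are high. The difference in share is therefore not read as a result. *Cdkn1a*, the cell cycle inhibitor p21, went from 0.0983, 0.168 and 0.119 CPM to 9.61, 13.5 and 12.4 CPM (log2 fold change 6.52, standard error 0.30, adjusted p = 7.92e-10). *Plk2*, *Phlda3* and *Bmf*, all linked to arrest or death, rose by 4.00, 3.11 and 1.12. *Cdkn1a* was also the sole call among 26 cell cycle genes (median 0.40), where *Ccnd2*, a cyclin of early G1, was higher by 0.87 and *Cdkn1c*, the inhibitor that lens fibers use, by 0.43 on the log2 scale. Of 19 hypoxia response genes 5 rose and 0 fell (median 0.55). *Epas1*, a hypoxia-inducible factor that endothelium expresses strongly, rose by 5.45, *Egln3*, an oxygen-sensing hydroxylase, by 1.70 and *Bnip3*, a mitophagy receptor, by 1.67, while *Ndrg1*, another hypoxia target, went from 651, 739 and 836 CPM to 429, 370 and 320 CPM, a log2 fold change of −0.99.

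Markers of cells that lie around the lens were measured beside these groups, since whole lenses were taken. Vascular endothelium markers summed to 15.3, 15.3 and 17.9 CPM in wild-type and to 93.5, 99.3 and 110 CPM in *Trpm3*-M/M libraries, with a higher mean in 15 of 15 markers, and none of them was at 3 counts or fewer throughout. Of the 9 tested, 8 rose and 0 fell (median 5.31), *Flt1* by 7.24, *Cldn5* by 6.48, *Tie1* by 6.47 and *Tek* by 1.05, while *Egfl7* had a log2 fold change of 0.06 with overlapping libraries. Pericyte and mural markers summed to 35.5 to 41.0 CPM and to 83.6 to 93.7 CPM. Of the 5 tested, 3 rose and 1 fell, *Cspg4* by 6.83, *Rgs5* by 5.93 and *Mcam* by 2.85, and *Notch3* fell. Macrophage markers, of which 0 of 18 reached the filter, summed to 2.26 to 2.69 CPM and to 17.9 to 32.3 CPM, with a higher mean in 18 of 18.

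Fibroblast markers summed to 115 to 133 CPM and to 111 to 171 CPM, with overlap, and *Dpt*, *Kera* and *Lum* held at most 3 counts in any library. Single members moved unequally, with 3 rises and 1 fall among the 5 tested and a higher mean in 9 of 13. *Col1a1* and *Col1a2* rose by 8.71 and 1.57, and *Col6a3* had a log2 fold change of −0.94. Photoreceptor markers summed to 2.90 to 3.53 CPM and to 18.4 to 25.9 CPM, most of it *Arr3*, cone arrestin, the single tested member, which held 6 counts over the wild-type libraries and 10.7, 18.8 and 19.9 CPM in *Trpm3*-M/M. The mean was higher in *Trpm3*-M/M for 15 of these 18 markers. Other neural retina markers summed to 61.9 to 71.5 CPM and to 59.7 to 65.2 CPM, with a higher mean in 15 of 20. Of the 2 tested, 1 rose, and *Prkca*, the more abundant, had a log2 fold change of −0.76. Pigmented cell markers were at 31.1 to 34.2 and 26.4 to 29.2 CPM, with *Gpr143*, *Mlana*, *Rpe65* and *Tyr* at most at 3 counts, and ciliary non-pigmented epithelium markers at 143 to 151 and 80.6 to 89.4 CPM. Corneal and surface epithelium markers summed to 28.9 to 34.2 and 39.7 to 57.8 CPM, with *Krt12*, *Dsg1a*, *Dsg3* and *Ly6d* at most at 3 counts and *Krt4*, a keratin of surface epithelium, higher by 3.08 on the log2 scale. Red blood cell markers summed to 1.22, 12 and 7.71 CPM in wild-type and 12.4 to 15 CPM in *Trpm3*-M/M, and astrocyte and Schwann cell markers to 157 to 179 and 231 to 239 CPM. The sums for vessels and macrophages were thus higher and those for pigmented and ciliary cells lower. Single ciliary markers went both ways, with a higher mean in *Trpm3*-M/M in 8 of 12. The abundant *Mfap2* and *Gja1* were lower (log2 fold change −0.83 and −0.97). Of 13 pigmented markers 5 had a higher mean, with *Trpm1* at 0.75 and *Mitf* at −0.70. The part of any of these cell types in the results was not tested.

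**Figure D5:**
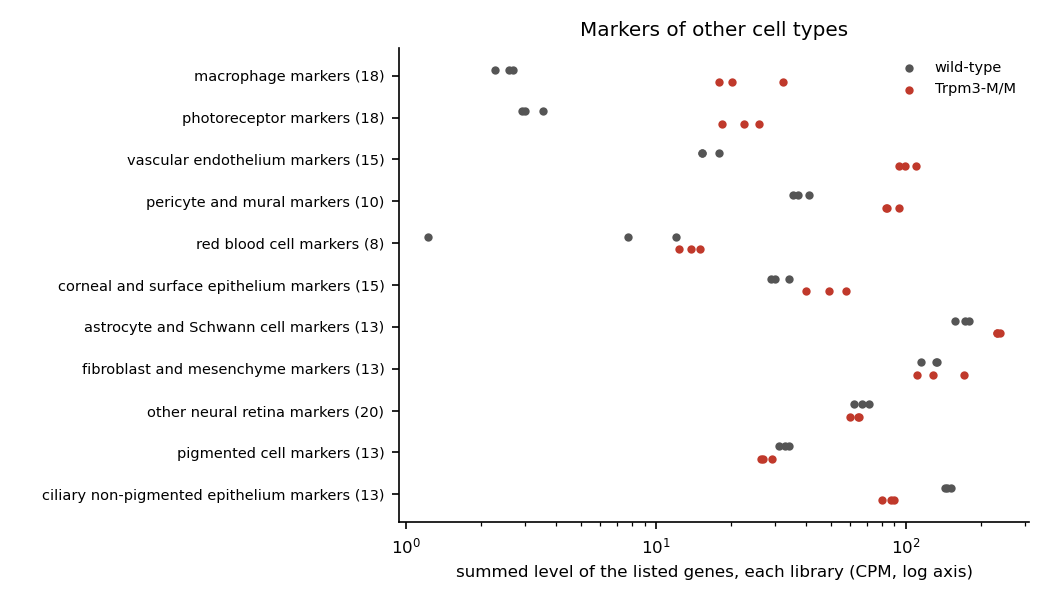
Summed level in CPM (horizontal log axis) of the genes on each marker list (number listed in brackets) in the 3 wild-type (grey) and 3 *Trpm3*-M/M (red) libraries, 1 point a library. Macrophage, photoreceptor, endothelium and pericyte sums are higher in all *Trpm3*-M/M libraries, and the pigmented and ciliary sums are lower.

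Of 23 tested matricellular and provisional matrix genes 13 rose and 1 fell (median 1.72). *Postn*, periostin, went from 0.157, 0.126 and 0.139 CPM to 52.2, 80.9 and 60.1 CPM (log2 fold change 8.82, standard error 0.27, adjusted p = 2.15e-11). *Tgfbi*, a matrix adaptor induced by TGF-beta, rose by 7.50 and *Tnc*, tenascin-C, an anti-adhesive glycoprotein, reached 76.4, 119 and 115 CPM. *Spp1*, osteopontin, had 3 counts over the wild-type libraries and 5880 over the *Trpm3*-M/M libraries, a ratio of 1119.0 (95% exact interval 383 to 5427.6). The most abundant member, *Sparc*, an abundant capsule-associated protein, did not follow, at 1092.2, 1114.8 and 1154.8 CPM against 1090.2, 1178.5 and 1211.3 CPM (log2 fold change 0.05, adjusted p = 0.456). *Emilin1*, an elastic fiber glycoprotein, fell from 31.9, 29.4 and 34.4 CPM to 4.73, 5.51 and 5.09 CPM (log2 fold change −2.64).

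Of 19 tested collagens 12 rose and 0 fell (median 2.43). *Col1a1*, of the main fibrillar collagen, went from 0.138, 0.126 and 0.119 CPM to 35.0, 80.2 and 47.7 CPM (log2 fold change 8.71, standard error 0.43, adjusted p = 1.48e-09), and its partner chain *Col1a2* rose by 1.57. *Col5a3*, a fibrillar chain, and *Col15a1*, a vessel basement membrane collagen, rose by 7.66 and 5.58. The type IV chains, which build the lens capsule, went both ways by less than 2-fold. *Col4a1* was at 3079.1, 2850.1 and 3323.7 CPM in wild-type and 2129.1, 2215.4 and 2334.3 CPM in *Trpm3*-M/M (log2 fold change −0.47, adjusted p = 1.36e-05), and *Col4a2* had a log2 fold change of −0.42, with both signs turning when totals were the scale. *Col4a5* (log2 fold change 0.21, adjusted p = 0.00177) and *Col4a6* (0.28, adjusted p = 0.00194) were higher in all *Trpm3*-M/M libraries. *Col6a3*, a fibroblast chain, had a log2 fold change of −0.94.

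Of 17 laminin and basement membrane genes 5 rose and 0 fell (median 0.65). *Lama4*, the alpha chain of vessel walls, went from 0.0393, 0.189 and 0.159 CPM to 29.4, 26.2 and 28.7 CPM (log2 fold change 7.76), *Nid2* rose by 1.73 and *Lamb2* by 1.5. *Nid1* and *Hspg2*, capsule components, overlapped between genotypes (log2 fold change −0.10 and −0.30). Of 16 integrins and cadherins 5 rose (median 0.59), with *Cdh13* and *Cdh5*, cadherins of vessels, by 7.24 and 5.31, *Cdh4* by 1.84 and *Itga9*, a tenascin receptor, by 1.69. *Cdh2*, N-cadherin of lens fibers, was higher by 0.18 on the log2 scale.

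Of 19 tested matrix proteases and inhibitors 10 rose and 1 fell (median 1.21). *Serpine2* and *Mmp2*, an inhibitor and a gelatinase, rose by 6.12 and 5.94. *Adamts17* went from 4.52, 3.87 and 4.06 CPM to 49.7, 46.9 and 53.3 CPM (log2 fold change 3.59, standard error 0.08, adjusted p = 3.93e-12), *Timp1* rose by 3.09 and *Adamts18*, a protease needed for normal eye development, fell by 1.51. Of 7 lysyl oxidases and proteoglycans 4 rose (median 1.55). *Loxl2*, a collagen cross-linker, went from 24.0, 27.2 and 26.2 CPM to 172, 181 and 172 CPM (log2 fold change 2.76, standard error 0.06, adjusted p = 3.93e-12). *Cd44*, the hyaluronan receptor, was at 40.3, 36.9 and 8.84 CPM in wild-type and 91.6, 124 and 117 CPM in *Trpm3*-M/M, so that wild-type replicate 3 stood apart from the other two.

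Contractile genes rose in 8 of 13 tested members, with 0 falls (median 1.48). *Acta2*, smooth muscle actin, a mark of epithelial–mesenchymal transition in lens cells, went from 66.6, 75.8 and 62.6 CPM to 169, 254 and 212 CPM (log2 fold change 1.63, standard error 0.14, adjusted p = 4.36e-07). *Tagln*, an actin cross-linker, rose by 5.54, *Cnn2*, a calponin, by 4.06 and *Myl9*, a myosin light chain, by 1.99. For *Loxl2*, *Acta2*, *Ccn2* and *Sparc* the wild-type level was already 14.0 CPM or more in every library. For *Col1a1*, *Postn* and *Lama4* it was under 0.200 CPM. The endothelial sum was 6.24-fold and the pericyte sum 2.30-fold higher in the same libraries, and the part of such cells in these matrix results was not tested.

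Immune genes were few, because most did not reach the filter. Of 5 tested antigen presentation genes 3 rose: *B2m*, the light chain of class I molecules, from 1.79, 2.14 and 2.54 CPM to 13.5, 19.5 and 18.3 CPM, and *H2-D1* and *H2-K1*, heavy chains of similar sequence, by 3.33 and 1.98 on the log2 scale. *Ccl2*, a monocyte chemokine, went from 0.0393, 0.0420 and 0.337 CPM to 8.80, 11.4 and 13.1 CPM (log2 fold change 6.28), and *Cxcl14* rose by 6.34. Of 5 complement genes 2 rose, *Masp1*, a lectin pathway protease, and *Serping1*, the C1 inhibitor, by 8.68 and 1.73. Of 3 tested interferon-stimulated genes 1 fell, *Rsad2*, the antiviral enzyme viperin, from 16, 18.8 and 18.5 CPM to 1.14, 0.824 and 0.801 CPM (log2 fold change −4.28, standard error 0.15, adjusted p = 6.48e-11). The macrophage sum was 9.32-fold higher in the same libraries, and its part was not tested.

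Of 21 tested glycolysis genes, the main source of energy for lens fibers, 6 rose and 1 fell (median 0.59). *Pfkp*, a phosphofructokinase, went from 1.63, 1.32 and 1.21 CPM to 14.6, 19.1 and 19.2 CPM (log2 fold change 3.67), *Hk1*, hexokinase, rose by 1.78, *Pgk1* by 1.56 and the lactate exporter *Slc16a3* by 1.21. *Pgam2*, the muscle-type mutase, fell from a range of 520 to 591 CPM to one of 198 to 246 CPM. *Slc2a1*, the lens glucose transporter, overlapped between genotypes (log2 fold change −0.11, adjusted p = 0.177, and 0.40 with totals as the scale).

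Of 82 nuclear-encoded oxidative phosphorylation genes 1 rose, the muscle subunit *Cox6a2*, by 5.15, from 2.03, 1.68 and 1.74 CPM to 51.5, 64.3 and 78.7 CPM (list median −0.15, and 0.36 with totals as the scale). None of the 13 mitochondrially encoded genes was called by edgeR or by DESeq2, with 1 past the FDR threshold alone (median −0.07, and 0.44 with totals as the scale). Of 82 cytosolic ribosomal protein genes, 0 were called, 78 were lower past the FDR threshold alone, and the median was −0.46, which became 0.05 with totals as the scale. As a share of counted reads they took 1.84% ± 0.0212 in wild-type and 1.89% ± 0.0853 in *Trpm3*-M/M (SD, n = 3 each). Of 26 cholesterol genes 1 fell, *Dhcr7*, the last enzyme of the pathway, by 1.44 (median −0.20, and 0.31 with totals as the scale). Among 17 aldehyde dehydrogenase and retinoid genes *Rdh10*, which starts retinoic acid synthesis, rose by 1.36 and *Stra6*, the retinol receptor, fell by 1.14 (median −0.08, and 0.43 with totals as the scale).

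Several of the largest changes were in genes outside the lists. *Bpifb6*, a lipid-binding protein of the secretory pathway, held 0 counts in all wild-type libraries and 14.4, 24.9 and 12.5 CPM in *Trpm3*-M/M, at least 285-fold higher against a floor of 3 counts per library. *Meox2*, a homeobox gene of mesoderm and vessels, had 1 count in wild-type and 6.34, 8.12 and 7.70 CPM in *Trpm3*-M/M, a ratio of 1106.4 (95% exact interval 198 to 43723.6). *Gpnmb*, a glycoprotein of macrophages and pigment cells, went from 0.0983, 0.294 and 0.0396 CPM to 42.3, 78.0 and 97.3 CPM (log2 fold change 8.99, standard error 0.49). Each of these 3 held at most 0.294 CPM in any wild-type library.

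The largest falls outside the lists were in genes that wild-type lenses express. *Emilin3*, a matrix glycoprotein, went from 39.9, 38.8 and 38.6 CPM to 3.91, 4.76 and 4.06 CPM (log2 fold change −3.20, standard error 0.09, adjusted p = 7.63e-12). *Nnat*, an imprinted membrane protein linked to calcium stores, went from 23.4, 24.4 and 22.3 CPM to 2.26, 3.21 and 2.78 CPM, and *Tmem132b*, a membrane protein, fell by 3.42. *Lcp2*, an adaptor of immune cells, fell by 3.04, *Megf11*, a receptor with EGF repeats, fell by 3.57, *Fam131b* fell by 2.91 and *Gm43718*, an unnamed gene model, fell by 5.19. The wild-type and *Trpm3*-M/M libraries did not overlap for any of them.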

How the data were processed

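Lens RNA of 3 wild-type and 3 *Trpm3*-M/M libraries was analysed here, within a fit of all 12 libraries. The authors aligned and counted reads with DRAGEN against the Ensembl mouse assembly (mm10) and deposited estimated counts per gene and library, not normalized and not pooled. These were rounded. For 168 repeated identifiers, whose values were equal, 1 entry was kept. Columns of the authors' own comparisons (fold changes and p-values from edgeR) were left out. A gene was tested where 3 or more of the 12 libraries reached a CPM of 5, in 1 quasi-likelihood fit with TMM factors and genotype as the factor (edgeR 4.0.16, R 4.3.3, Benjamini–Hochberg adjustment). CPM uses the TMM factors. A symbol with 2 tested identifiers (*Lim2*) was counted once in its list, by the more abundant. Depth was 56162169 to 73875040 counts, and intervals and the floor of 3 counts cover counting error only. Coordinates are from GENCODE vM21 (GRCm38) and promoters from RefSeq, with 7027 of the 8984 genes matched by symbol. On simulated data for this comparison (8984 genes, 200 changed), 98.7% of 2.5-fold, 100% of 4-fold and 100% of 8-fold changes were called. The changes were put in at random in both directions, with the spread of the same fit. The simulation was not given the change in crystallin share seen here, so it cannot judge the choice of scale.

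The lists and genes were chosen with earlier results of these data known. Genes were named by rule: the 12 largest rises and 12 largest falls with at least 5 CPM in the higher group, up to 4 called members a list and direction at that level, the 10 most abundant called genes, the 2 most abundant tested members of each list, and *Trpm3*, *Atp2b1*, *Atp2b4*, *Atp1b1*, *Cabp5*, *Trpv4* and *Trpm1*. *Cryab*, *Cryba4*, *Crygd*, *Pax6*, *Col4a5*, *Col4a6*, *Mir204* and the markers at 3 counts or fewer were named besides, after their values were seen. A few genes chosen by this rule were left out of the text. Alternatives were library size only, TMM factors without crystallin genes, upper-quartile factors, DESeq2 1.42.0, glmTreat, no fold threshold, other filters, only the 6 libraries, the replicate number as a block and each library left out. Python 3.11.15 with pandas 2.3.3, numpy 2.4.6 and matplotlib 3.10.9 was used besides.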

Additional observations from a re-analysis of the deposited data

How the results depend on the processing

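Of the 178 genes called here by name, 178 kept direction and call with DESeq2, with TMM factors taken without crystallin genes and with only the 6 libraries compared. Library size only gave 1277 genes higher and 77 lower (94.3% of calls higher, against 71.8%), and 24 of the 178 then missed 2-fold, all of them falls. Among members of the functional lists it gave 312 higher and 16 lower, against 181 and 42. It turned the sign of *Prox1* (0.18), *Capn3* (0.02), *Slc2a1* (0.40), *Ccnd1* (0.06), *Igfbp7* (0.09), *Hsp90ab1* (0.33), *Col4a1* (0.04), *Col4a2* (0.08), *Nid1* (0.41), *Hspg2* (0.20) and *Xist* (0.24), none of them called. Library size only also put *Ccnd2* (1.37), *Trpm3* (1.33), *Trpm1* (1.26), *Trpv4* (1.25), *Capns1* (1.09) and *Jund* (1.04), not called here, past 2-fold. Without the filter on low counts 2543 genes were higher and 912 lower of 32253, and with a CPM of at least 1 1224 and 410 of 12638, where *Dkk3* was at −0.01. *Cacna1h* missed 2-fold without the filter (0.99), with a CPM of at least 1 (0.98) and with upper-quartile factors (0.99), and *Rcan3* with a CPM of at least 1 (0.99). Without a fold threshold 2820 were higher and 2817 lower. A test against a fold change of 2 (glmTreat) left 464 higher and 130 lower, with 26 list members lower. Of the 178 named genes 152 kept their call in it and 26 did not. Among those lost were the falls of *Crygf*, *Cryga*, *Crygc*, *Cryge*, *Lctl*, *Lenep*, *Meis2*, *Plaat3* and *Hmox1*. The rises of *Hspa5*, *Asns*, *Tek* and *Cacna1h* were also among them.

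Leaving out 1 library gave 563 to 590 genes higher and 210 to 265 lower. Without wild-type replicate 2, *Crygc* (−0.99), *Cryge* (−0.97), *Hmox1* (−0.99), *Rcan3* (0.99) and *Tek* (0.94) missed 2-fold. Without wild-type replicate 3, *Cacna1h* (0.92) and *Hspb6* (0.97) did. Without *Trpm3*-M/M replicate 2 it was *Cacna1h* (0.98), *Notch3* (−0.98) and *Rcan3* (0.97), and without *Trpm3*-M/M replicate 3 *Cacna1h* (1.00), *Cryge* (−0.98), *Hmox1* (−0.82), *Lenep* (−0.96) and *Rcan3* (0.98). Signs near 0 turned for *Dkk3* (lowest −0.01, highest 0.03), *Kcnj12* (−0.03 to 0.11), *Egfl7* (−0.03 to 0.11) and *Xist* (−0.67 to 0.17). Same-numbered libraries correlated at −0.024, 0.068 and 0.139, so the numbers do not pair the samples, and the fit with the replicate number as a block gave 579 higher and 227 lower. With 3 libraries a genotype, calls near 2-fold are the least firm, and genes under the filter were not tested.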
